A study of Mus musculus with 12 samples.

Results

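This account concerns 10 genes that decide whether a cell crosses the threshold to apoptosis: the BCL2 family genes Bcl2, Bcl2l1, Mcl1, Bcl2a1b, Bcl2l11, Bmf, Bik and Bak1, and the inhibitor of apoptosis (IAP) genes Birc2 and Birc3. They were chosen by name, with earlier results of these data known, as 10 of the 53735 gene symbols in the count table. RNA was sequenced from mouse mammary glands, dissociated to live cells and sorted on CD24 and CD49f into luminal cells, which line the ducts and alveoli, and basal cells, the contractile outer layer. Wild type (WT) mice were compared with MMTVRANK mice, which carry a Rank (Tnfrsf11a) transgene under the mouse mammary tumour virus promoter, a promoter most active in mammary epithelium. Each of the 4 groups (WT luminal, MMTVRANK luminal, WT basal and MMTVRANK basal) had 3 libraries. No group had another treatment or allele in the labels, and strain, age and whether a replicate is 1 animal or a pool are not given in the sources used here, so p-values measure the spread between these libraries, which may be technical.

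In the mitochondrial pathway of apoptosis, the pro-survival proteins BCL2, BCL-XL (from Bcl2l1), MCL1 and A1 (from the Bcl2a1 genes) hold the effectors BAX and BAK (from Bak1) in check. BH3-only proteins, among them BIM (from Bcl2l11), BMF and BIK, bind the pro-survival proteins and release the effectors, which permeabilise the mitochondrial outer membrane and set off the caspases. The cIAP1 and cIAP2 proteins (from Birc2 and Birc3) are ubiquitin ligases that join TRAF2 at TNF family receptors, mark RIPK1 and hold back the non-canonical NF-kB pathway, the branch that RANK can engage. In the mammary gland this machinery clears the ductal lumen and removes milk-producing cells at involution.

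The libraries held 12459547 to 15069578 counts each. The first principal component carried 63.7% of the variance and parted luminal from basal libraries as their titles name them. For the libraries labelled WT replicate 2 the title and the cell subtype field disagree, and the groups here follow the titles. Tnfrsf11a, the gene of the transgene, was at 6.36, 90.8 and 9.91 CPM (counts scaled to a common library total) in WT luminal replicates 1 to 3 and at 319, 156 and 238 CPM in MMTVRANK luminal cells. In basal cells it was at 73.7, 158 and 65.3 CPM in WT and at 415, 129 and 218 CPM in MMTVRANK. Both libraries labelled WT replicate 2 thus stood well above the other WT libraries, the basal one also above an MMTVRANK library, so the WT calls of the genes described below that were lost without both are given with that value. Luminal keratins and other luminal markers summed to 6412 to 17738 CPM in luminal libraries and 600 to 977 CPM in basal ones, and basal markers to 25.9 to 218 CPM and 13111 to 17541 CPM.

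Bcl2a1b belongs to a set of near-identical mouse genes on chromosome 9, and its reads can be assigned only where the copies differ. The transcripts of Bcl2a1b and Bcl2a1a were 98.2% identical and those of Bcl2a1b and Bcl2a1d 99.1%. Their coding regions of 516 bases differed at 12 positions, and the longest run shared by all 3 copies was 217 bases. The first 60 coding bases, which hold 6 of those positions, are shown with the differing positions in capitals (GRCm38, chr9:89199360-89199419 on the plus strand, chr9:88957051-88957110 on the plus strand and chr9:88731660-88731719 on the minus strand, in the order listed).
Bcl2a1b: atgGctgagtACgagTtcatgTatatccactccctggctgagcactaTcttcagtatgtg
Bcl2a1a: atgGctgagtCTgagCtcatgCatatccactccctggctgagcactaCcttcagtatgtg
Bcl2a1d: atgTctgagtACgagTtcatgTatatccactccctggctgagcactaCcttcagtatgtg

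Birc2 (chr9:7818227-7837064) and Birc3 (chr9:7848699-7873186) lie next to each other on the minus strand of chromosome 9, 11634 bases apart with 0 gene models between them. Birc2 but not Birc3 was called between populations below, a difference between the genes that was not tested. As context, the 250 bases before a transcription start of each are shown, for Birc2 the more upstream of 2 starts, from RefSeq on GRCm38.p6, with each CG dinucleotide in capitals (chr9:7837058-7837307 for Birc2 and chr9:7873171-7873420 for Birc3, both minus strand).
Birc2: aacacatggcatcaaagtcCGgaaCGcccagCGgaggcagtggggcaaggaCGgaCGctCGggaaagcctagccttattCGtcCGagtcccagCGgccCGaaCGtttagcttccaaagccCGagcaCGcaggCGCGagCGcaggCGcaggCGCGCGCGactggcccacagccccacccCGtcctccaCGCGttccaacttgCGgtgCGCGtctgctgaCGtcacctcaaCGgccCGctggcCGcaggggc
Birc3: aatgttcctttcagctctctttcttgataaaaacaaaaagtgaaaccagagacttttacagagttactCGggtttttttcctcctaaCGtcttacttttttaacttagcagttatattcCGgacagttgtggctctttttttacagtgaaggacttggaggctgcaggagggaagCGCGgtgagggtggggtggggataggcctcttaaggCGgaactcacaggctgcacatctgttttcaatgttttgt
The Birc2 window held 31 CG dinucleotides, a number reached by 5.19% of 32851 such windows, and the Birc3 window held 6, which equals the median window. The window of the other Birc2 start held 19, a number reached by 19.7% of windows. RefSeq windows were matched for 9 of the 10 genes, 15 windows in all, and searched on both strands. The NF-kB consensus was found in 1 of the 15 (Bcl2l1, as GGGGGTCTCC, at -242 to -233 from an internal start), against 3.9% of all windows. All 250 bases of that window are exonic in the deposited gene models. The window of the most upstream Bcl2l1 start, with 0 exonic bases, held no match. The letters TGANTCA, a loose AP-1 pattern that allows any middle base, were found in 1 of the 15, against 6.75% of all windows. That match was in Bcl2a1b, as TGAATCA, at -164 to -158. Such matches describe letters and are not evidence of binding.

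Divided by exon length, Mcl1 had the highest level of the 10 genes in every library. In WT luminal cells it stood at 145 ± 21.3 CPM per kilobase (SD, n = 3), ahead of Bcl2l1 at 27.2 ± 2.42, Bik at 23.7 ± 5.54, Birc3 at 19.5 ± 6.23, Birc2 at 17.6 ± 3.24 and Bak1 at 16.6 ± 1.66 CPM per kilobase. Bcl2l11 followed at 9.07 ± 3.30, Bmf at 3.72 ± 0.310 and Bcl2 at 2.34 ± 1.81 CPM per kilobase. In this order the neighbours from Bcl2l1 to Bak1 lay within their spread. In WT basal cells Mcl1 was at 132 ± 7.45 CPM per kilobase, then came Birc3 at 19.0 ± 13.1, Bcl2l1 at 15.4 ± 2.26, Birc2 at 14.4 ± 3.30 and Bcl2l11 at 12.7 ± 1.57 CPM per kilobase. Bcl2 was at 7.01 ± 1.92 CPM per kilobase there, and Bik was last of the genes with counts at 0.260 ± 0.0617 CPM per kilobase. The plot of CPM by library shows all 10 genes. From here on, levels are CPM scaled by TMM factors and not divided by length.

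**Figure D1:**
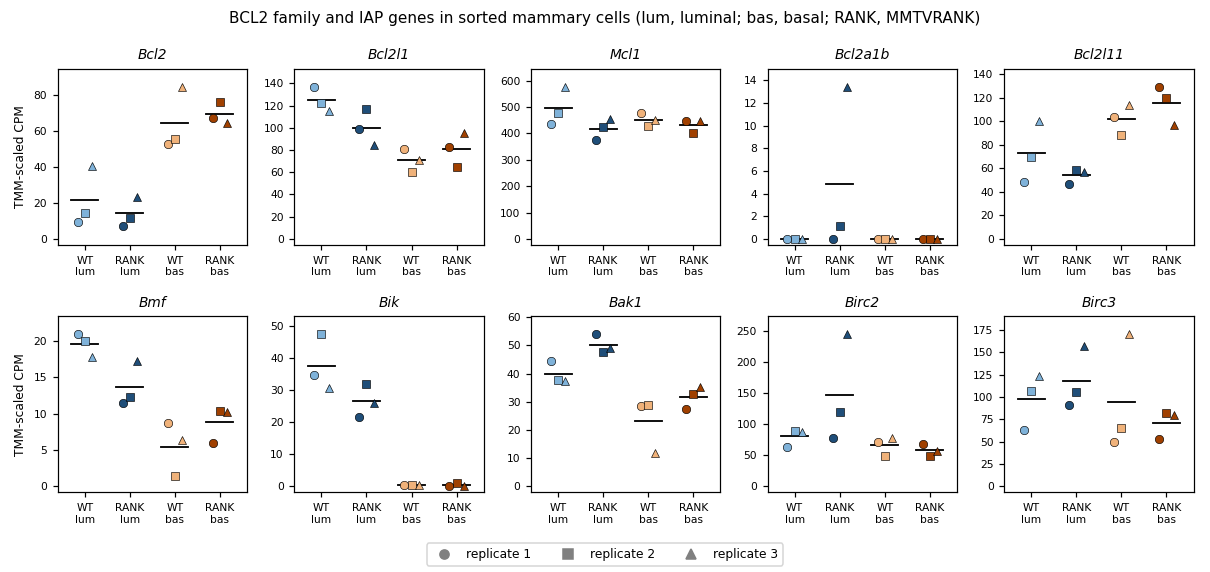
Level of each of the 10 genes in the 12 libraries, in TMM-scaled CPM on linear axes that start at 0. Points are libraries (circle, square and triangle for replicates 1, 2 and 3), bars are group means, and each panel has its own scale; Bik is near 0 in all basal libraries and Bcl2a1b is at 0 outside 2 MMTVRANK luminal libraries.

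Luminal and basal cells of WT mice differed in 5 of the 9 genes that passed the filter on low counts (about 10 counts a library), at an adjusted p under 0.05, which is what called means below. Bik, Bmf, Bcl2l1 and Bak1 were higher in luminal cells and Bcl2 was higher in basal cells. In MMTVRANK mice 4 of the 9 differed: Bik and Birc2 were higher in luminal cells, Bcl2 and Bcl2l11 higher in basal cells. Many genes differ between these populations: 38.1% of the 18236 genes tested passed the same threshold in WT (18% higher and 20% lower in luminal cells) and 33.2% in MMTVRANK (16.1% and 17%). The median log2 fold change, luminal minus basal, was 0.29 over the 9 genes in WT and 0.64 in MMTVRANK, against -0.07 and 0.05 over all genes tested. The luminal and basal libraries did not overlap for 5 of the 9 genes in WT (46.1% of all genes tested) and for 7 of the 9 in MMTVRANK (54.5%). Levels in sorted populations cannot tell apart fewer cells of a type and less RNA per cell.

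**Figure D2:**
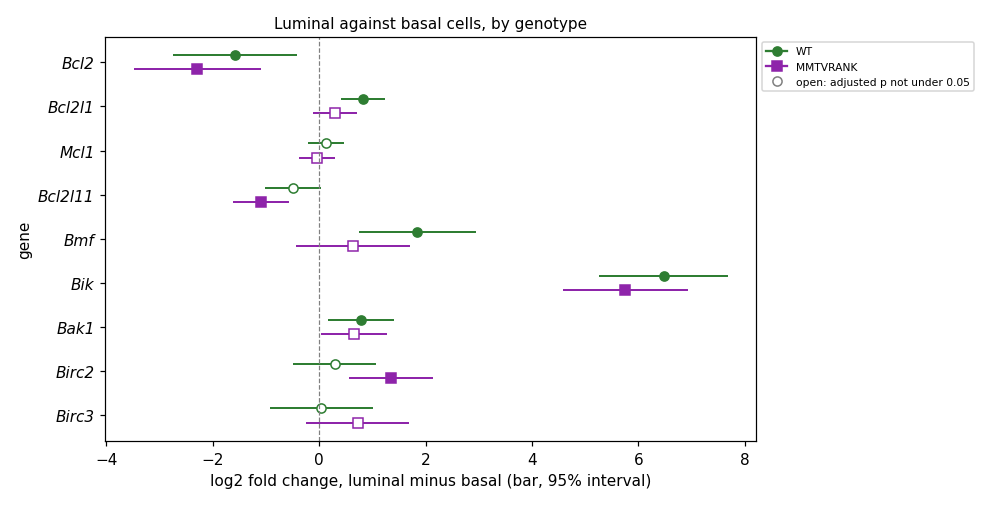
Log2 fold change between luminal and basal cells for the 9 tested genes in WT (circles) and MMTVRANK (squares), with 95% intervals from edgeR's quasi-likelihood fit; filled symbols had an adjusted p under 0.05. Bik lies far to the right in both genotypes and Bcl2 to the left in both.

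Among the pro-survival genes, Bcl2 (chr1:106538178-106714274, minus strand) was the basal one. It was at 9.50, 14.5 and 40.3 CPM in WT luminal libraries and at 52.4, 55.7 and 84.5 CPM in WT basal libraries. In MMTVRANK it was at 7.15, 11.7 and 23.5 CPM in luminal and at 67.2, 76.1 and 64.2 CPM in basal libraries. All 6 basal libraries were above all 6 luminal ones. In edgeR's quasi-likelihood fit, with Benjamini-Hochberg adjusted p here and below, the luminal minus basal log2 fold change was -1.58 (SE 0.52, adjusted p = 0.0336) in WT and -2.29 (SE 0.53, adjusted p = 0.00671) in MMTVRANK. The WT call was lost in 7 of 18 alternative ways of processing the counts. It was lost without both libraries labelled WT replicate 2 (-1.45, adjusted p = 0.133, the highest of all alternatives, which reached down to 7.11e-08). It was also lost, with the adjusted p in brackets, without WT luminal replicate 1 (0.104) or 2 (0.114), WT basal replicate 2 (0.0514) or 3 (0.102), or MMTVRANK basal replicate 1 (0.0504) or 3 (0.0502). Without WT luminal replicate 3, whose Bcl2 was the highest of the luminal libraries, the value was -2.41 (adjusted p = 0.00195). The MMTVRANK call held in all 18 alternatives.

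Within the luminal libraries of each genotype, but not across both, Bcl2 ran in the same order as the sum of the luminal progenitor markers Elf5, Kit, Aldh1a3 and Cd14. That sum was 260, 446 and 625 CPM in WT luminal replicates 1 to 3 and 328, 348 and 668 CPM in MMTVRANK. Of it, Cd14 alone held 207 CPM on average in WT and 239 CPM in MMTVRANK. The summed basal markers there were 25.9, 31.6 and 76.6 CPM in WT and 47.8, 49.0 and 218 CPM in MMTVRANK. Leukocyte markers, described below, summed to 142, 122 and 131 CPM in WT and 125, 158 and 1067 CPM in MMTVRANK luminal replicates 1 to 3. The part of any of these in the Bcl2 level was not tested. Of the Bcl2 exon length, 6.09% overlaps an antisense gene model, AC162916.2, which held at most 46 counts in a library.

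Bcl2l1 (chr2:152780668-152831728, minus strand), the BCL-XL gene, was at 137, 123 and 115 CPM in WT luminal libraries and at 80.5, 59.9 and 71.4 CPM in WT basal libraries, without overlap. In MMTVRANK it was at 99.0, 117 and 84.1 CPM in luminal and at 82.5, 64.9 and 95.4 CPM in basal libraries, which overlapped. Its log2 fold change was 0.82 (SE 0.18, adjusted p = 0.00366) in WT and 0.30 (SE 0.18, adjusted p = 0.230) in MMTVRANK. The difference between these lineage effects was -0.52 (95% interval -1.08 to 0.04, adjusted p = 0.668), so they are not shown to differ. The count adds up all splice forms of the gene, the short pro-apoptotic one included.

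Mcl1 (chr3:95658788-95663176, plus strand), whose protein turns over within a short time, was even across the groups. It was at 435, 476 and 577 CPM in WT luminal, 373, 424 and 454 CPM in MMTVRANK luminal, 479, 428 and 451 CPM in WT basal and 448, 400.3 and 446 CPM in MMTVRANK basal libraries. All 4 groups overlapped. The lineage log2 fold change had a 95% interval of -0.19 to 0.45 in WT and -0.37 to 0.27 in MMTVRANK (adjusted p = 0.521 and 0.831).

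Added up per exon length with Bcl2l2 (the BCL-W gene) and the Bcl2a1 copies, the pro-survival genes made a sum in which Mcl1 took 72.3% to 83.7% in every library. Bcl2l1 made up 14.9% ± 2.71 of it in WT luminal cells and 9.52% ± 0.791 in WT basal cells (SD, n = 3). Bcl2 made up 1.21% ± 0.804 and 4.36% ± 1.18 in the same groups. In MMTVRANK the shares of Bcl2 were 0.918% ± 0.431 in luminal and 4.82% ± 0.764 in basal cells. These shares are descriptions of transcript counts and carry no test.

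**Figure D3:**
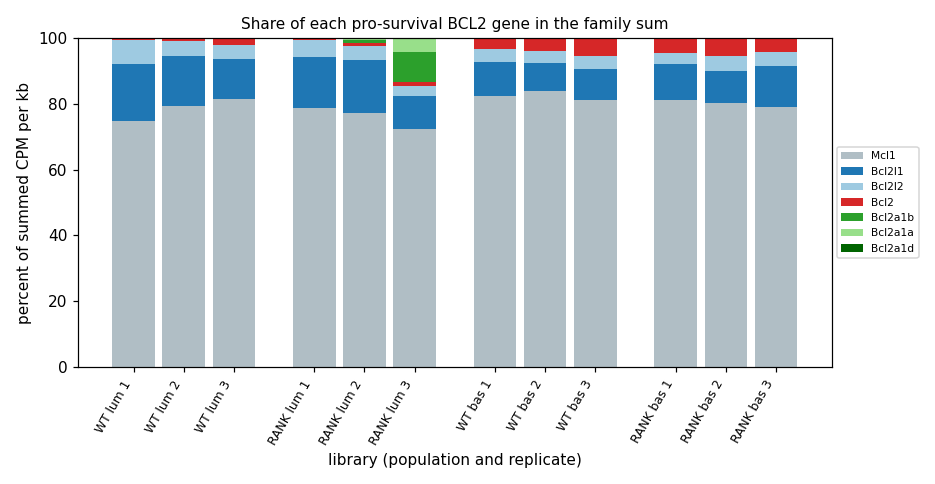
Share of each pro-survival BCL2 gene in the sum of their CPM per kilobase, as stacked bars from 0 to 100%, for each of the 12 libraries. Mcl1 takes 72.3% to 83.7%, the Bcl2 share is larger in basal than in luminal libraries, and Bcl2a1b reaches 8.94% in MMTVRANK luminal replicate 3.

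Bik (chr15:83526862-83544634, plus strand), a BH3-only gene whose protein sits at the endoplasmic reticulum, had the largest lineage difference of the 9 genes. It was at 34.8, 47.5 and 30.6 CPM in WT luminal and at 21.6, 31.9 and 26.1 CPM in MMTVRANK luminal libraries. In basal cells it was at 0.309, 0.504 and 0.428 CPM in WT and at 0.151, 1.10 and 0.235 CPM in MMTVRANK, which rest on 2 to 13 counts a library. Between the populations Bik differed by 6.47 on the log2 scale (SE 0.55, adjusted p = 3.74e-06) in WT and 5.75 (SE 0.53, adjusted p = 6.62e-06) in MMTVRANK, a fold of 88.9 and 53.9. Both calls held in all 18 alternatives. The basal libraries also held 600 to 977 CPM of luminal markers; the part of luminal cells in these few Bik counts was not tested.

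Bmf (chr2:118528757-118549687, minus strand), a BH3-only gene linked to the death of mammary cells that lose their attachment, was at 20.9, 20.0 and 17.7 CPM in WT luminal and at 8.66, 1.37 and 6.33 CPM in WT basal libraries. MMTVRANK libraries stood closer, at 11.5, 12.3 and 17.3 CPM in luminal and 5.97, 10.3 and 10.2 CPM in basal cells, again without overlap. This made a lineage effect of 1.84 on the log2 scale (SE 0.50, adjusted p = 0.0116) in WT and 0.64 (SE 0.48, adjusted p = 0.348) in MMTVRANK, and the difference of the effects was -1.20 (95% interval -2.70 to 0.29, adjusted p = 0.727). The lowest value, 1.37 CPM, came from the basal library labelled WT replicate 2. Without both libraries labelled WT replicate 2 the WT value was 1.37 on the log2 scale with an adjusted p of 0.0218 (5.47e-05 to 0.0435 over the alternatives).

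Bcl2l11 (chr2:128126038-128162547, plus strand), the BIM gene, was higher in basal cells of MMTVRANK mice. It was at 48.0, 69.9 and 101 CPM in WT luminal and at 104, 88.7 and 114 CPM in WT basal libraries, which overlapped. In MMTVRANK it was at 46.8, 58.4 and 56.8 CPM in luminal and at 129, 120.0 and 96.6 CPM in basal libraries, with every basal library above every luminal one. Luminal minus basal, this was -0.49 on the log2 scale (SE 0.23, adjusted p = 0.120) in WT and -1.09 (SE 0.24, adjusted p = 0.00334) in MMTVRANK, where it held in all 18 alternatives. The difference of the effects was -0.61 (95% interval -1.32 to 0.11, adjusted p = 0.706). Without WT luminal replicate 3, the highest luminal library, the WT value was -0.78 with an adjusted p of 0.0146 (up to 0.385 over the alternatives).

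Bak1 (chr17:27019810-27029009, minus strand), the effector gene, was at 44.5, 37.9 and 37.4 CPM in WT luminal and at 28.6, 28.8 and 11.7 CPM in WT basal libraries. In MMTVRANK it was at 53.9, 47.6 and 49.0 CPM in luminal and 27.6, 32.8 and 35.1 CPM in basal libraries. Luminal libraries were above basal ones in both genotypes. Its lineage effect was 0.79 on the log2 scale (SE 0.28, adjusted p = 0.0392) in WT and 0.66 (SE 0.27, adjusted p = 0.0870) in MMTVRANK. WT basal replicate 3 was the low library: without it the WT value was 0.48 (adjusted p = 0.0560) and the MMTVRANK value was 0.66 (adjusted p = 0.00710). The alternatives spanned adjusted p of 0.0126 to 0.120 in WT and of 0.00710 to 0.231 in MMTVRANK. The WT call was also lost, again with the adjusted p in brackets, without WT luminal replicate 1 (0.105), 2 (0.0657) or 3 (0.0540), or MMTVRANK basal replicate 2 (0.0516) or 3 (0.0509), and with the 2 groups alone (0.120). An antisense partner, Ggnbp1, overlaps 14.8% of the Bak1 exon length and held 4.34 to 13.2 CPM over the luminal and basal libraries of both genotypes.

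Birc2, the cIAP1 gene, differed between the populations in MMTVRANK. It was at 77.7, 119.6 and 245 CPM in MMTVRANK luminal and at 68.4, 48.9 and 56.2 CPM in MMTVRANK basal libraries. WT libraries overlapped, at 63.5, 90.0 and 88.3 CPM in luminal and 72.1, 48.9 and 77.4 CPM in basal cells. The luminal excess was 1.35 on the log2 scale (SE 0.35, adjusted p = 0.0118) in MMTVRANK and 0.29 (SE 0.35, adjusted p = 0.561) in WT, and the difference of the effects was 1.06 (95% interval -0.02 to 2.15, adjusted p = 0.656). MMTVRANK luminal replicate 3 carried much of the value: without it the log2 fold change was 0.77 (adjusted p = 0.0359). Without MMTVRANK basal replicate 2 it was 1.24 (adjusted p = 0.0530), the highest adjusted p of the alternatives, whose lowest was 8.31e-08.

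Birc3, the cIAP2 gene, was at 62.8, 107 and 123 CPM in WT luminal, 90.7, 105 and 157 CPM in MMTVRANK luminal, 49.5, 65.3 and 170.3 CPM in WT basal and 52.6, 81.6 and 80.1 CPM in MMTVRANK basal libraries. WT basal replicate 3 was the highest of all 12. The MMTVRANK luminal libraries were all above the MMTVRANK basal ones, by 0.72 on the log2 scale (SE 0.43, adjusted p = 0.237), and of 0.69 (adjusted p = 0.0431) with the replicate number as a block, within a range of 0.0104 to 0.528 over the alternatives. In WT it was 0.04 (SE 0.43, adjusted p = 0.954) and changed sign with the scaling, to -0.01 with RLE factors.

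MMTVRANK and WT did not differ in any of the 9 tested genes past the threshold, in luminal or in basal cells. Nor did Tnfrsf11a, the gene of the transgene, pass it in the same fit. Its log2 fold change was 2.74 (adjusted p = 0.224) in luminal and 1.36 (adjusted p = 0.977) in basal cells. A gene that was not called is therefore not shown to be unchanged. In luminal cells 1 of the 9, Birc2, had an unadjusted p under 0.05, against 12% of all genes tested, and 0.252% of all genes passed the adjusted threshold (46 genes, and 103 with the replicate number as a block). In basal cells 0 of the 9 had an unadjusted p under 0.05, against 5.41%, and 0.00548% of all genes passed. DESeq2 also called 0 of the 9 in each population. The median log2 fold change, MMTVRANK minus WT, was -0.32 in luminal and 0.18 in basal cells over the 9 genes, against 0.03 and 0.00 over all genes tested. Libraries of the genotypes did not overlap for 2 of the 9 genes in luminal cells (16.9% of all genes tested) and for 0 in basal cells (11.1%).

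**Figure D4:**
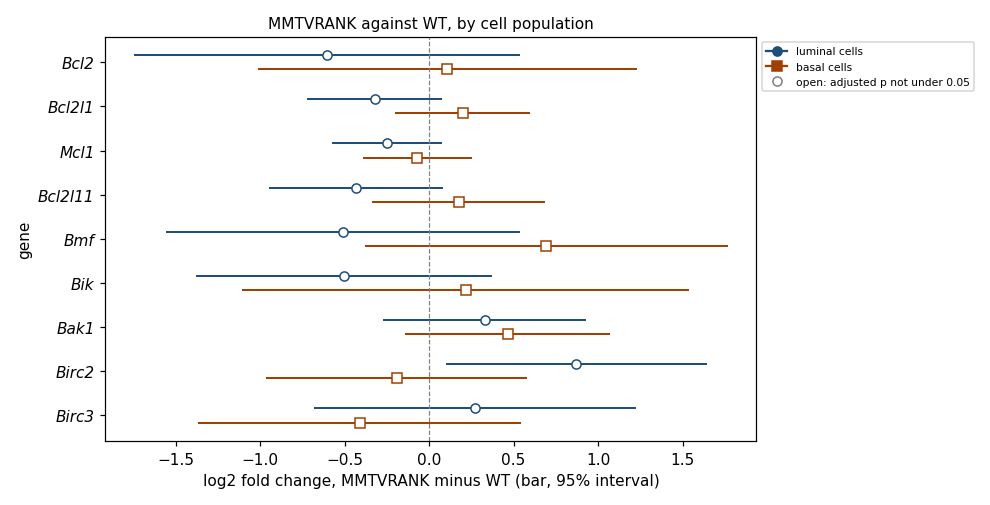
Log2 fold change between MMTVRANK and WT for the 9 tested genes in luminal (circles) and basal cells (squares), with 95% intervals from edgeR's quasi-likelihood fit. All symbols are open, since no adjusted p was under 0.05; Birc2 in luminal cells is the 1 interval that excludes 0.

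None of the following luminal values passed the threshold. For the tested pro-survival genes the log2 fold change, MMTVRANK minus WT, was -0.60 (95% interval -1.74 to 0.53) for Bcl2, -0.32 (-0.72 to 0.07) for Bcl2l1 and -0.25 (-0.57 to 0.07) for Mcl1, and it was -0.56 (-1.02 to -0.09, adjusted p = 0.304) for Bcl2l2. Bcl2a1b, which had no main test, is described on its own below. The Bcl2 value was 0.19 without WT luminal replicate 3. Of the BH3-only genes, Bcl2l11 was at -0.43 (-0.94 to 0.07), Bmf at -0.51 (-1.55 to 0.53) and Bik at -0.50 (-1.37 to 0.36), while Bbc3 was at 0.32 and Pmaip1 at 1.37, on the other side of 0, and Bad at -0.03. Every MMTVRANK luminal library had less Bmf than every WT luminal library, 11.5 to 17.3 CPM against 17.7 to 20.9 CPM. Bak1 was the reverse, 47.6 to 53.9 CPM against 37.4 to 44.5 CPM, with a log2 fold change of 0.33 (-0.26 to 0.92). The adjusted p of Bcl2, Bcl2l1, Mcl1, Bcl2l11, Bmf, Bik and Bak1 lay between 0.530 and 0.810. Markers of luminal cells moved with genotype in the same libraries: the summed luminal markers were 6412 to 10552 CPM in MMTVRANK and 11741 to 17738 CPM in WT, and the hormone-sensing markers 1211 to 3722 CPM and 3900 to 7250 CPM, both without overlap. Their part in these values was not tested.

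Birc2 had the largest genotype value in luminal cells, at 0.87 on the log2 scale (SE 0.35, 95% interval 0.11 to 1.64, unadjusted p = 0.0292, adjusted p = 0.338). It rested on MMTVRANK luminal replicate 3, at 245 CPM: without that library it was 0.26 with an adjusted p of 1, and with no filter on low counts the adjusted p was 0.00743, the lowest of the alternatives. Birc3 was at 0.27 (-0.68 to 1.22), and at -0.03 without the same library. In basal cells the values of the 9 genes ran from -0.41 for Birc3 to 0.69 for Bmf, with adjusted p of 0.977 or more. Birc3 was at 0.32 there without WT basal replicate 3. None of the 9 genes passed the test of whether the genotype effect differed between luminal and basal cells, where the adjusted p was 0.656 or more, 0 of the 9 had an unadjusted p under 0.05 (7.73% of all genes tested) and 0.00548% of all genes passed. DESeq2 also called 0 there.

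Bcl2a1b, the A1 copy, did not pass the filter on low counts and has no main test. It had 0 counts in 10 libraries, which allow 0.191 to 0.257 CPM (3 counts a library, counting error only), 18 counts (1.15 CPM) in MMTVRANK luminal replicate 2 and 229 counts (13.4 CPM) in MMTVRANK luminal replicate 3. Bcl2a1a ran alongside with 12 and 109 counts in those libraries and Bcl2a1d with 3 and 4, and the split among the copies is uncertain for the reason shown in their sequences. Of the Bcl2a1b exon length, 49.1% overlaps another gene model on the same strand, RP23-121I20.3, which held at most 4 counts in a library. The bound on the 0 counts takes no account of reads left out in that stretch or shared among the copies. With no filter on low counts Bcl2a1b passed the threshold for MMTVRANK against WT in luminal cells, where 3.58% of 37789 genes passed, and for luminal against basal cells in MMTVRANK, where 16.1% did. Neither was tested without MMTVRANK luminal replicate 3, which holds 229 of its counts.

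Bcl2a1 genes are known for their expression in leukocytes, and MMTVRANK luminal replicate 3 also stood apart in leukocyte markers. The sum of the 10 markers was 1067 CPM there, against 122 to 142 CPM in WT luminal libraries, 125 and 158 CPM in MMTVRANK luminal replicates 1 and 2, and 20.2 to 209 CPM in basal libraries. Cd74 was at 610.3, Lyz2 at 134 and Ptprc at 48.7 CPM in that library. None of the 10 was at 0 there. The same held in MMTVRANK luminal replicate 1 and MMTVRANK basal replicate 3, which had 0 counts of Bcl2a1b. In MMTVRANK luminal replicate 2, the other library with Bcl2a1b counts, 3 of the 10 were at 0, Ptprc was at 0.384 and Lyz2 at 0.384 CPM. Lcp1, at 106 to 182 CPM in luminal libraries, made up most of the sum in the other luminal libraries. The hormone-sensing luminal markers were at their luminal minimum in MMTVRANK luminal replicate 3, 1211 CPM, with the remaining luminal libraries at 3042 to 7250 CPM. The part of these cells in the Bcl2a1b, Birc2 and Birc3 levels was not tested. The plot of marker sums sets them beside Birc2, the Bcl2a1 copies and Traf1, a NF-kB-induced cIAP partner that was at 5.11, 17.2 and 33.3 CPM in the same 3 libraries.

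**Figure D5:**
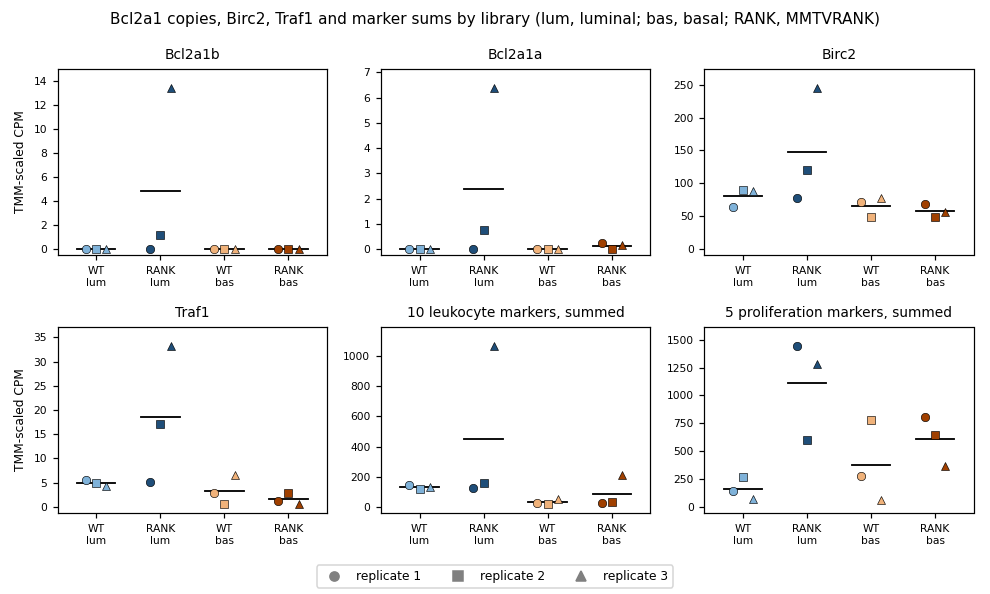
Levels of Bcl2a1b, Bcl2a1a, Birc2 and Traf1, and summed levels of 10 leukocyte and 5 proliferation markers, in TMM-scaled CPM by library on linear axes that start at 0. Points are libraries (circle, square and triangle for replicates 1, 2 and 3) and bars are group means; the triangle of MMTVRANK luminal replicate 3 is the highest point in all panels but that of proliferation markers, where replicate 1 is higher.

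The other genes of the pathway came from 7 lists with 50 genes, of which 44 were tested. These lists were also chosen with earlier results of these data known. In luminal against basal cells 14 of the 44 were higher and 4 lower in WT (18% and 20% of all genes tested), and 17 were higher and 3 lower in MMTVRANK (16.1% and 17%). Their median log2 fold change was 0.46 in WT and 0.42 in MMTVRANK, against -0.07 and 0.05 over all genes tested. For MMTVRANK against WT 0 of the 44 passed in luminal cells, where 6 had an unadjusted p under 0.05 (12% of all genes tested). In basal cells 0 passed, and 3 had an unadjusted p under 0.05 (5.41% of all genes tested).

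Of the other effectors and BH3-only genes, 4 of 9 were higher and 1 lower in luminal cells of WT (18% and 20% of all genes). In MMTVRANK 5 were higher and 0 lower (16.1% and 17%). Bax, the partner effector of Bak1, was at 20.1 CPM in WT luminal and 11.7 CPM in WT basal cells on average, or 0.78 on the log2 scale (SE 0.23, adjusted p = 0.0162), and at 0.75 (adjusted p = 0.0216) in MMTVRANK. Bid, which links death receptors to mitochondria, had a log2 fold change of 1.18 (adjusted p = 0.00949) in WT and 1.10 (adjusted p = 0.0155) in MMTVRANK. Bcl2l14, a less studied family gene, was at 99.5, 148 and 108 CPM in WT luminal and at 0.232, 0.576 and 2.48 CPM in WT basal libraries, a log2 fold change of 6.78 (adjusted p = 9.68e-05). With Bik it was the gene of the family most skewed to luminal cells in WT. Bok, an effector relative, was the reverse in WT, at 0, 2.62 and 2.22 CPM in luminal and 26.3, 30.3 and 8.39 CPM in basal libraries (log2 fold change -3.73, adjusted p = 0.00791). Of these calls, that of Bax was lost in WT without WT luminal replicate 1 or WT basal replicate 2 (adjusted p = 0.0773 and 0.0572). In MMTVRANK it was lost without MMTVRANK luminal replicate 1 or 3 or any 1 of the MMTVRANK basal libraries (adjusted p from 0.0514 to 0.0979), and with no filter it was lost in both (0.0867 and 0.139). That of Bid in MMTVRANK was lost without MMTVRANK luminal replicate 3, without MMTVRANK basal replicate 2 or with no filter (adjusted p from 0.0564 to 0.0714). The p53 targets Bbc3 and Pmaip1 (the PUMA and NOXA genes) had MMTVRANK values of 2.27 (adjusted p = 0.00380) and 2.25 (adjusted p = 0.0895), and WT values of 0.84 (adjusted p = 0.190) and -0.27 (adjusted p = 0.840). Bcl2l2, the remaining pro-survival gene with a test, was higher in WT luminal cells (0.69, adjusted p = 0.0238) and at 0.14 (adjusted p = 0.660) in MMTVRANK. The Bcl2l2 call was lost in 5 alternatives, among them leaving out WT luminal replicate 1, WT basal replicate 2 or WT basal replicate 3 (adjusted p from 0.0533 to 0.106), and leaving out both libraries labelled WT replicate 2 (0.73, adjusted p = 0.0562).

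Of the apoptosome and caspase genes, 5 of 14 were higher and 1 lower in luminal cells of WT (18% and 20% of all genes). In MMTVRANK 6 were higher and 1 lower (16.1% and 17%). Casp8, the initiator caspase of death receptors, had log2 fold changes of 1.29 (adjusted p = 9.78e-05) in WT and 1.51 (adjusted p = 3.16e-05) in MMTVRANK. Casp9, which the apoptosome activates, was at 1.38 and 1.34, while Apaf1, the scaffold of that complex, was lower in WT luminal cells at -1.62 (adjusted p = 0.00161) and at -0.48 (adjusted p = 0.262) in MMTVRANK. For MMTVRANK against WT in luminal cells Apaf1 had the smallest p of the 44 genes. Its log2 fold change was 1.21 (unadjusted p = 0.00220, adjusted p = 0.128), and it was called in 2 of 18 alternatives, DESeq2 and no filter on low counts (adjusted p from 0.0138 to 0.419 over all of them). The difference of the genotype effects was 1.14 (adjusted p = 0.590). Of the IAP antagonists, 1 of 4, the mitochondrial protease gene Htra2, was lower in luminal cells, at -1.41 in WT and -1.26 in MMTVRANK. Over all genes tested 20% and 17% were lower.

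Of the partners of cIAP1 and cIAP2, Traf2 and Tradd were higher and Ripk1 lower in luminal cells of both genotypes. The log2 fold change of Traf2 was 1.01 in WT and 1.32 in MMTVRANK, and that of Ripk1, a substrate of the cIAPs, -1.21 and -1.10. The WT call of Tradd was lost in 7 alternatives, without WT luminal replicate 1 or 2 or WT basal replicate 2 or 3 among them (adjusted p from 0.0601 to 0.128), and without both libraries labelled WT replicate 2 it was at 1.10 (adjusted p = 0.115). Traf1 was higher in luminal cells of MMTVRANK, at 3.56 (adjusted p = 0.00947), and was at 0.57 (adjusted p = 0.629) in WT. The difference of the Traf1 effects was 2.99 (adjusted p = 0.596), so they are not shown to differ. Among the other IAP genes, Xiap, a direct caspase inhibitor, was not called in either genotype (-0.10, adjusted p = 0.669, and -0.30, adjusted p = 0.198). Naip6 and Naip5 were called in both genotypes; they are near copies whose reads the count may have split, and Naip6 had 0 counts in all 3 WT basal libraries.

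Birc5, the survivin gene, which cells express as they divide, had the largest genotype value of the 44 genes in luminal cells. It was at 7.41, 9.29 and 2.86 CPM in WT luminal and at 63.0, 24.3 and 43.0 CPM in MMTVRANK luminal libraries, without overlap. MMTVRANK minus WT, this was 2.74 on the log2 scale (SE 0.77, adjusted p = 0.170, with 3.33e-11 to 0.435 over the alternatives). The summed proliferation markers were 144, 269 and 67.9 CPM and 1444, 602 and 1284 CPM in the same libraries, and their part in the Birc5 value was not tested.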

How the data were processed

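Libraries of the sorted cells were made with a stranded low-input kit, per the labels' protocols. The submitters' processing notes name STAR 2.6.1b, Subread 1.5 and GRCm38.p6. The deposited values are raw counts for each symbol of GENCODE M17. The authors obtained them with featureCounts 1.5.2, each read going to the gene of its largest overlap, per the file headers. The command names no strand option, so antisense overlaps cannot be told apart. Of 53735 symbols, 15946 had no count.

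Groups followed the titles. Genes were kept by filterByExpr (count minimum 10), which left 18236, and given TMM factors. A single model with group means over 12 libraries was fitted by quasi-likelihood with edgeR 4.0.16 in R 4.3.3 (biological coefficient of variation 0.450). Adjusted p is Benjamini-Hochberg over all genes tested, threshold 0.05. SE is the log2 fold change divided by √F. Alternatives were DESeq2 1.42.0, RLE factors, no filter, the 2 groups alone, a replicate block, and libraries left out. The script was also run on simulated data with a smaller spread than these libraries, so that run does not measure its power here.

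The members and lists were chosen with earlier results of these data known. All 10 members were named whatever their values, with Bcl2l2, Bax, Bbc3, Pmaip1, Bid, Xiap and Birc5, and up to 4 genes a list with the smallest p among those called. A gene of the caspase list that this rule names is not reported here. Replicate numbers come from the titles. Same-numbered libraries deviated together in luminal cells of both genotypes (correlations 0.525, 0.125 and 0.392), in WT populations (0.277, 0.168 and 0.343) and in MMTVRANK populations (0.278, 0.144 and 0.199), which were read as paired, but not in basal cells (0.404, -0.071 and 0.091). The main fit holds group means only, so its SE, intervals and p-values leave this pairing out. The replicate block was run as an alternative. No 2 of the 12 libraries were duplicates (66 pairs, chi-square per degree of freedom 25.5 or more). Sequences are from RefSeq and GENCODE M21 on GRCm38, while the counts rest on GENCODE M17. Exon lengths were not compared between these annotations. Merged exons of the deposited gene models only matched the lengths deposited with them.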

Additional observations from a re-analysis of the deposited data

How the results depend on the processing

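Over 18 alternatives the calls of Bik in both genotypes, Bcl2l1 and Bmf in WT, and Bcl2 and Bcl2l11 in MMTVRANK kept their direction and side of the threshold. Over all comparisons, 762 values of the 9 tested genes kept both, 15 lost a call, 6 gained one and 17 changed sign. The 762 include the many values that were not called in the main fit either. The lost calls were those of Bcl2 in WT (7 alternatives), Bak1 in WT (7) and Birc2 in MMTVRANK (1). With no filter on low counts 2 of the 10 genes, Bcl2a1b and Birc2, passed for MMTVRANK against WT in luminal cells, where 3.58% of all 37789 genes passed; of the Bcl2a1b counts there, 229 came from MMTVRANK luminal replicate 3 and 18 from replicate 2. Leaving out 1 library at a time gave 3 to 5 genes called for luminal against basal cells in WT, and 3 without WT luminal replicate 1 or 2, WT basal replicate 3 or MMTVRANK basal replicate 3. It gave 3 to 5 in MMTVRANK and 0 in the other comparisons. Over the whole table the same settings called 5776 to 6898 genes between populations in WT, against 6940 in the main fit. In MMTVRANK they called 4612 to 6415, against 6049.

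Changes of sign concerned values near 0 or with a wide interval. Birc3 in luminal against basal cells of WT went to -0.014 with DESeq2 and with RLE factors and to -0.23 without both libraries labelled WT replicate 2. Bcl2l2 for MMTVRANK against WT in basal cells went to 0.006 with no filter and to 0.011 with the replicate block. Leaving out 1 library at a time, the ranges that crossed 0 were -0.26 to 0.77 for Birc3 in luminal against basal cells of WT and -0.112 to 0.022 for Mcl1 in MMTVRANK. For MMTVRANK against WT they were -1.22 to 0.19 for Bcl2 and -0.028 to 0.428 for Birc3 in luminal cells. In basal cells they were -0.009 to 0.361 for Bcl2, -0.71 to 0.32 for Birc3, -1.06 to 0.66 for Bik, -0.29 to 1.10 for Birc5, -0.10 to 0.11 for Bcl2l2 and -0.11 to 0.28 for Apaf1. For the difference of genotype effects they were -1.29 to 0.12 for Bcl2, -1.16 to 0.56 for Bik, -0.333 to 0.176 for Bak1 and -0.051 to 0.982 for Birc3. The cause was not tested.

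With the replicate block 5 of the 9 genes were called between populations in MMTVRANK, Birc3 among them, and 6485 genes over the whole table. The block changed no other call of the 9 genes. Over the whole table the genes called for MMTVRANK against WT in luminal cells were 46 (17 higher and 29 lower), 56 with RLE factors (15 and 41), 800 with DESeq2 (485 and 315), 1353 with no filter (934 and 419), 7 with the 2 groups alone, 103 with the block, 81 without both libraries labelled WT replicate 2 and 3 to 93 without 1 library. In basal cells 1 gene was called, and 66, 349, 0 and 4 with DESeq2, no filter, the 2 groups alone and without WT replicate 2. For the difference of effects it was 1, and 140, 776, 0 and 3 with DESeq2, no filter, the block and without WT replicate 2. RLE factors moved the median of all genes by at most 0.07 on the log2 scale.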

Other observations

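For each of the 5 genes called between luminal and basal cells of WT, the 3 genes with the most similar profile were sought among 11114 genes with an average log2 CPM of 2 or more. The measure was the root-mean-square difference in log2 CPM over the 12 libraries, each gene centred on its own mean. For Bik they were Igsf5 (0.434), Cgn (0.578) and Vipr1 (0.590), against a median of 2.97 over all genes compared. For Bcl2 they were Nedd9 (0.310), Lck (0.334) and Dennd5b (0.336), against 1.38. For Bmf they were Ccpg1os (0.335), Saysd1 (0.404) and Cecr5 (0.454), against 1.07. For Bcl2l1 they were Grcc10 (0.112), Arel1 (0.132) and Pex6 (0.137), against 0.557, and for Bak1 Fopnl (0.195), Cenpj (0.206) and Myg1 (0.209), against 0.683. The 12 libraries share the division into populations, so these distances describe profiles and carry no test.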
